A study of Arabidopsis thaliana with 14 samples.

Results

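The 10 genes followed here are regulators of flowering time of *Arabidopsis thaliana*, named by locus. The list was made with earlier results of these data known. It holds the mobile signals *FT* (AT1G65480) and *TSF* (AT4G20370), the photoperiod activator *CO* (AT5G15840), the integrators *SOC1* (AT2G45660) and *AGL24* (AT4G24540), the repressors *FLC* (AT5G10140) and *SVP* (AT2G22540), and the meristem identity genes *FUL* (AT5G60910), *AP1* (AT1G69120) and *LFY* (AT5G61850). The arrays carried 29 probes for these 10 loci, of 28327 loci with a probe in all. Of these, 9 loci, with 28 of the 29 probes, passed the filter on dim probes and were tested among 22810 loci. Each locus was represented by its brightest probe.

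The plants were of 2 genotypes, the quadruple mutant of brassinosteroid perception (quad) and the Col-0 wild type (WT). Quad carries mutant alleles of the receptor *BRI1*, the co-receptor *BAK1* and the *BRI1* homologues *BRL1* and *BRL3*, in every cell of the plant and in every condition. By the labels, plants spent 7 days on agar and 16 days in soil in long days of 16 h light at 22 °C, and whole plants 28 days old were collected. The labels give this same age for every condition, day 0 and day 6 alike, so they do not give the age on each day. The 7 conditions were day 0, and days 2, 4 and 6 either under drought (water withheld) or under normal watering. Each of 14 arrays held quad and WT RNA of 1 condition, with 2 replicates a condition and the dyes exchanged between them, so that dye and replicate number cannot be told apart. By the study's methods a replicate was several rosettes pooled, so a channel averages over plants. The p-values rest on the spread between such pools, estimated for a gene over all 7 conditions. They do not measure the spread between the 2 pools of a single condition. As dye goes with replicate number and has no term in the fit, that spread also holds any dye effect. No hour of collection is given in the sources used here. Values of a condition are given for replicate 1 and then replicate 2, on a log2 scale.

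Long days stabilise the CO protein in leaves, which activates *FT* and *TSF*. Their proteins move to the shoot apex and, with partner transcription factors, switch on *SOC1*, *FUL* and *AP1*. FLC and SVP bind and repress *FT* and *SOC1*. AP1 and LFY turn new meristems into flowers, where both genes are strongly expressed, so a rise of these transcripts in whole plants accompanies bolting. In whole-plant RNA, more cells of a type and more RNA per cell cannot be told apart.

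Series-wide checks bear on how far these values reach. *BAK1*, *BRL1* and *BRL3* were lower in quad than in WT on 14 of 14 arrays, while *BRI1*, whose allele is a point mutation, was higher on 13 of 14. The replicate arrays of a condition correlated at r = 0.523 to 0.888 across genes, which are not independent replicates. Replicate 1 of day 4 drought stood apart: its log ratios correlated at 0.422 with those the scanner software had written, against 0.695 to 0.833 on the other 13 arrays. Well above background were 58.7 to 69.0% of probes in the quad channels and 57.0 to 72.7% in the WT channels. All 7 leaf markers and 12 of 17 flower organ markers were well above background in all 28 channels, against 2 of 10 root markers, although none of the 10 was dim throughout. Flower organ transcripts were thus measurable from day 0 on.

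*TSF* was the exception among the members. Its single probe was well above background in 1 of 14 quad channels and 2 of 14 WT channels, at log2 signals of 6.09 to 6.49 in quad and 5.94 to 6.50 in WT. It was left out of the tests. The chosen probes of the other 9 members were well above background in all 28 channels. Their mean log2 signals ran from 6.86 for *FLC* to 13.20 for *SOC1*. The offset of 50 added in background correction draws log2 changes of dim probes toward 0. Sizes and folds of change are thus not on 1 scale across dim and bright members. *FT* also has a single probe, whereas the other 8 have 3 or 4 each. In all 10 member and condition pairs with several probes that passed the quad/WT test, the probes agreed in sign.

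Does the loss of brassinosteroid perception shift these regulators? Over 9 members and 7 conditions, 14 of 63 quad/WT ratios passed an adjusted p under 0.05 (22.2%, against 13.5% of all gene and condition pairs), 12 of them higher and 2 lower in quad. *AP1*, *FT* and *CO* passed in 4 conditions each, *FUL* and *LFY* in 1 each, and *SOC1*, *AGL24*, *FLC* and *SVP* in none. The largest of them was 0.95 on the log2 scale. By condition, members passed in 4 of 9 cases at day 0 (10.1% of all genes), 4 under day 2 drought (17.6%), 1 under day 2 water (21.5%), 0 under day 4 drought (5.9%) and day 4 water (13.1%), 3 under day 6 drought (12%) and 2 under day 6 water (14.6%). The counts rest on loess normalization within arrays: with median centring in place of both loess and quantile normalization, 1 of the 63 pairs passed. The main fit has no term for replicate number, with which dye orientation goes. With that number as a block, more pairs passed in both directions, *SOC1*, *FLC* and *SVP* among them, as listed in the closing section. The plot of ratios by array gives every value.

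**Figure D1:**
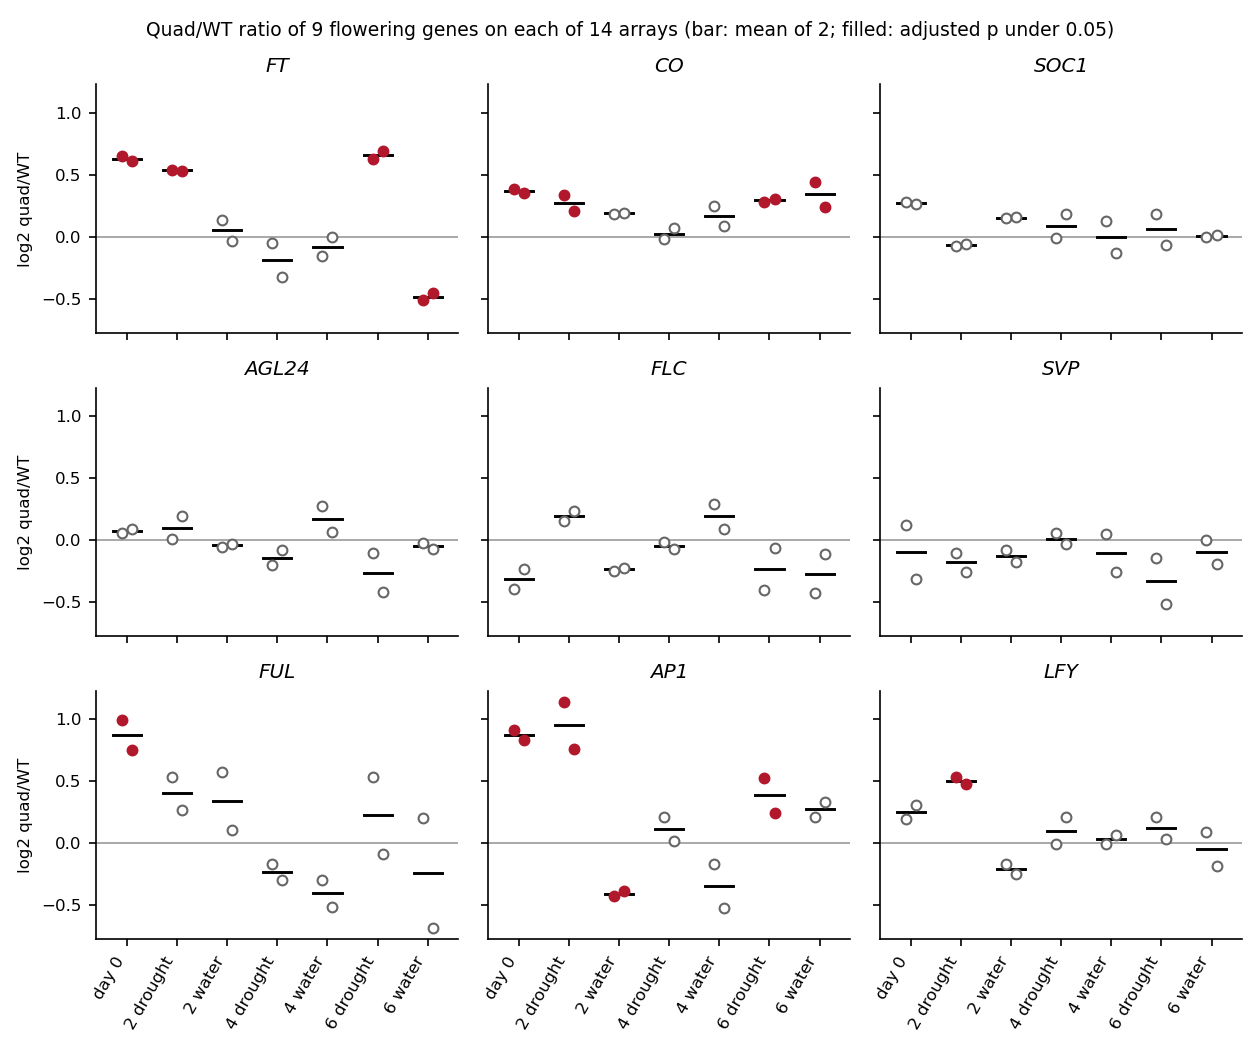
Log2 quad/WT ratio (y axis) of the 9 measured members on each of 14 arrays, by day and treatment (x axis). Each point is 1 array, replicate 1 left of replicate 2, and the bar is their mean; filled red points mark conditions that passed an adjusted p under 0.05. *FT* lay at 0.61 and above on both day 0 and both day 6 drought arrays and at -0.45 and below on both day 6 water arrays.

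*FT*, the mobile flowering signal made in the phloem of leaves, switched sides with condition. Its log2 quad/WT ratio was 0.65 and 0.61 at day 0, a 1.55-fold higher level in quad (0.63 ± 0.09 SE, adjusted p = 0.000391, limma). Under day 2 drought it was again higher in quad, at 0.54 and 0.54 (adjusted p = 0.000906), whereas under day 2 water it was 0.14 and -0.03. At day 4 the ratios were -0.05 and -0.32 under drought and -0.15 and -0.00 under water, and neither passed. At day 6 the 2 treatments lay on opposite sides of 0. Under drought *FT* was 1.59-fold higher in quad (0.63 and 0.70, adjusted p = 0.000347), and under water it was 1.39-fold lower (-0.51 and -0.45, adjusted p = 0.00294). These 4 calls held without any single array.

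The single channels show which genotype moved. In quad, *FT* stood at log2 signals of 7.42 and 7.33 at day 0, against 6.76 and 6.72 in WT. At day 6 under drought it reached 7.90 and 8.33 in quad, against 7.27 and 7.63 in WT. At day 6 under water it stood at 7.83 and 7.92 in quad, against 8.34 and 8.36 in WT. In each of these 3 conditions the 2 genotypes did not overlap. As these conditions had passed the ratio test and hold 2 channels a genotype, this only describes the values.

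*CO*, the transcription factor that activates *FT* in long days, was higher in quad on 13 of 14 arrays. The differences were small as scaled here, with the offset. At day 0 the log2 ratio was 0.39 and 0.36 (1.29-fold, adjusted p = 0.0105), and at day 6 under water 0.45 and 0.24 (1.27-fold, adjusted p = 0.0138). Under drought it was 0.34 and 0.21 at day 2 (adjusted p = 0.0337) and 0.28 and 0.31 at day 6 (adjusted p = 0.0334). The other 3 conditions ranged from -0.02 to 0.25 and did not pass. These calls were close to the limit. With 1 of its own arrays left out, the day 0 call was lost either way (adjusted p = 0.176 and 0.129), as were the day 2 and day 6 drought calls (0.393 and 0.114 at day 2, 0.113 and 0.221 at day 6), and the day 6 water call was lost without replicate 1 (0.167). With the mean of its 4 probes in place of the brightest, the drought calls fell to log2 0.22 each (adjusted p = 0.0646 at day 2 and 0.0811 at day 6).

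*CO* transcript follows the clock through the day, so time-of-day genes are set beside it. Of 12 core clock genes, 5 were lower and 0 higher in quad at day 0, 6 lower and 2 higher under day 2 drought, 5 lower and 5 higher under day 6 drought, and none passed under day 4 or day 6 water. Of all genes, 10.1% passed at day 0, 17.6% under day 2 drought and 12% under day 6 drought. Under day 4 and day 6 water 13.1% and 14.6% passed. The summed clock level at day 0 lay between 14.75 and 14.97 in quad and between 15.02 and 15.05 in WT on the log2 scale. At day 6 under water it lay between 15.24 and 15.26 in quad and between 15.13 and 15.14 in WT. Such a sum can hide clock genes that move in opposite directions, so similar sums do not show a similar time of day. *GI*, the clock-linked activator of *CO*, was lower in quad at day 0 (log2 -1.72, adjusted p = 3.39e-06). The part of time of day in the *CO* and *FT* differences was not tested.

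*SOC1* and *AGL24* are MADS-box integrators that promote each other at the shoot apex. *SOC1* had log2 ratios of 0.28 and 0.27 at day 0 (adjusted p = 0.0836) and of -0.13 to 0.19 on the other 12 arrays. *AGL24* ranged from -0.42 to 0.28 over all 14 arrays, with 6 above and 8 below 0. Neither passed in any condition. *FLC*, the vernalization-sensitive repressor that Col-0 expresses weakly for lack of an active *FRI* allele, had ratios of -0.40 and -0.23 at day 0 (adjusted p = 0.0868). It was below 0 on 10 of 14 arrays, within -0.43 to 0.30. *SVP*, the partner of FLC in repression, was also below 0 on 10 of 14 arrays, within -0.51 to 0.13. The lowest *SVP* ratio was under day 6 drought, at -0.14 and -0.51 (log2 -0.33 ± 0.12 SE, adjusted p = 0.115).

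*AP1*, the MADS-box gene that specifies floral meristems, sepals and petals, gave the largest quad/WT difference among the members on a single array as scaled here, with a sign that also depended on condition. At day 0 the log2 ratio was 0.91 and 0.83 (1.83-fold higher in quad, adjusted p = 0.000317). Under day 2 drought it was 1.14 and 0.76 (1.93-fold higher, adjusted p = 0.000124), but under day 2 water -0.43 and -0.39 (1.33-fold lower, adjusted p = 0.0243). At day 4 it was 0.21 and 0.02 under drought and -0.17 and -0.52 under water (adjusted p = 0.0754 under water). At day 6 it was 0.53 and 0.24 under drought (adjusted p = 0.049) and 0.21 and 0.33 under water (adjusted p = 0.141). The day 0 and day 2 drought calls held without any single array. The day 2 water call was lost without either of its arrays (adjusted p = 0.221 and 0.174), and the day 6 drought call with any of 10 single arrays left out, its own among them (0.348 without replicate 1, 0.0793 without replicate 2).

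In log2 signal, *AP1* stood at 9.29 and 9.17 in quad at day 0, against 8.37 and 8.34 in WT. Under day 2 drought it stood at 9.78 and 9.83 in quad, against 8.64 and 9.07 in WT. Under day 2 water it stood at 9.33 and 9.28 in quad, against 9.76 and 9.66 in WT. The genotypes did not overlap in any of these 3 conditions, which only describes values whose ratios had passed. Their order turned between the treatments of day 2.

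*FUL*, a MADS-box gene of the inflorescence meristem and later of the fruit, was 1.83-fold higher in quad at day 0 (0.996 and 0.75, log2 0.87 ± 0.20 SE, adjusted p = 0.0125). The call was lost without either day 0 array (adjusted p = 0.23 without replicate 1 and 0.0901 without replicate 2). Elsewhere *FUL* did not pass, and its replicates lay apart: under day 6 water the ratio was 0.21 and -0.68. *LFY*, the transcription factor that commits meristems to flowers, passed once. Under day 2 drought its ratio was 0.53 and 0.48 (1.42-fold higher in quad, adjusted p = 0.00221), with log2 signals of 7.20 and 7.13 in quad, against 6.67 and 6.65 in WT. That call was lost without replicate 1 of the condition (adjusted p = 0.0668). On the other arrays *LFY* ranged from -0.25 to 0.31.

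Flower organ genes were set beside the meristem identity genes. Of 17 flower organ markers, 5 were higher and 0 lower in quad at day 0, 11 higher and 0 lower under day 2 drought, and 9 higher and 2 lower under day 6 drought, while 12 were lower and 0 higher under day 4 water. Of all genes, 10.1% passed at day 0, 17.6% under day 2 drought, 12% under day 6 drought and 13.1% under day 4 water. The summed level of the flower organ markers at day 0 lay between 12.5 and 12.8 in quad and at 11.8 in both WT channels. Under day 4 water it lay between 13.0 and 13.2 in quad and between 14.4 and 14.5 in WT, a condition in which no meristem identity gene passed and *AP1* had a log2 ratio of -0.34 ± 0.12 SE and *LFY* of 0.03 ± 0.09. Under day 2 water, where *AP1* was lower in quad, 1 marker was lower and 0 higher, and the sums overlapped, between 12.87 and 13.04 in quad and between 12.88 and 12.92 in WT. In the plot against that sum, *AP1* was lowest in the WT channels of day 0, which had the lowest sums, and highest in watered quad at day 6 (10.70 and 10.64), where the sums were 14.97 and 14.88. Leaf and root markers differed between the genotypes as well. The share of all genes that passed was 21.5% under day 2 water and 14.6% under day 6 water. Of 7 leaf markers, 2 were lower in quad at day 0 and under day 2 drought, 5 under day 2 water and 4 under each day 6 treatment, and 0 were higher in any condition. Their sum at day 0 lay between 17.04 and 17.08 in quad and at 17.52 in both WT channels, and under day 6 drought between 17.29 and 17.32 in quad and between 17.78 and 18.23 in WT. Of 10 root markers, 8 were lower in quad under day 2 drought, and 7 were higher under day 4 water, 7 under day 6 drought and 10 under day 6 water. The root sum under day 6 water lay between 13.77 and 13.78 in quad and between 12.55 and 13.07 in WT. In every condition but day 2 drought the root sums lay higher in quad. Under day 2 water they lay between 13.83 and 13.99 in quad and between 13.03 and 13.26 in WT. Under day 2 drought they lay between 13.56 and 13.58 in quad and between 13.97 and 14.20 in WT. The order of the root sums thus turned between the treatments of day 2, as that of *AP1* did. The part of tissue makeup in the quad/WT ratios of the members was not tested.

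**Figure D2:**
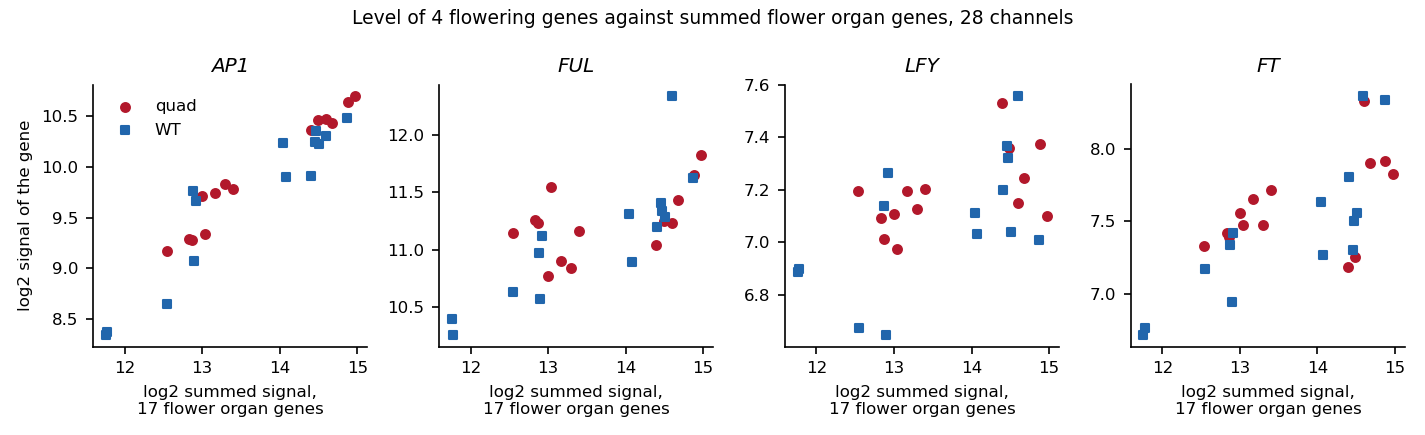
Log2 signal of *AP1*, *FUL*, *LFY* and *FT* (y axes) against the log2 of the summed signal of 17 flower organ genes (x axis) in 28 channels, quad as red circles and WT as blue squares. The 2 WT channels of day 0 have the lowest flower organ sums and the lowest *AP1*, at 8.37 and 8.34; *LFY* and *FT* scatter more widely.

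Did the genotype difference itself depend on water? The drought minus water difference of the quad/WT ratio was tested for each day in the same fit. At day 2, 3 of 9 members passed (21.1% of all genes), all more positive under drought: *AP1* by 1.36 ± 0.16 (SE, adjusted p = 9.11e-05), *LFY* by 0.71 ± 0.13 (adjusted p = 0.00187) and *FT* by 0.48 ± 0.12 (adjusted p = 0.0136) on the log2 scale. Over the 3 days 4 of 27 pairs passed, against 9.99% of all gene and day pairs. At day 4 none of the members passed (4.14% of all genes). At day 6 *FT* alone of the 9 passed (4.7% of all genes), at 1.14 ± 0.12 (SE, adjusted p = 0.0004). Drought and water arrays of the same replicate number shared a slide at days 2 and 6. Within those slides the day 2 *AP1* difference was 1.57 and 1.15, that of *LFY* 0.70 and 0.73, and that of *FT* 0.40 and 0.57, and the day 6 *FT* difference was 1.14 and 1.14. The *AP1*, *LFY* and day 6 *FT* results held without any single array. The day 2 *FT* result was lost without either day 2 drought array (adjusted p = 0.0762 without replicate 1 and 0.0667 without replicate 2) or without replicate 2 of day 2 water (0.123).

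Within each genotype, drought was set against water by the single-channel fit, since no array holds both. In quad, *AP1* alone of the members passed, and it rose: 1 of 9 members at day 2 (7.49% of all genes), 1 at day 4 (5.13%) and 0 at day 6 (18.1%). In WT, 2 of 9 members passed at day 2 (13.6%), 0 at day 4 (2.19%) and 3 at day 6 (15.2%), 4 lower and 1 higher under drought. Over the 3 days this makes 2 of 27 pairs in quad (7.41%, against 10.2% of all gene and day pairs) and 5 of 27 in WT (18.5%, against 10.3%). *AP1* at day 2 alone passed in both genotypes. These calls rest on the quantile step between arrays: with loess within arrays alone, or with median centring, 0 members passed in either genotype.

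At day 2, drought-treated quad had *AP1* at 9.78 and 9.83, against 9.33 and 9.28 in watered quad (log2 0.50 ± 0.13 SE, adjusted p = 0.0198), and drought-treated WT had it at 8.64 and 9.07, against 9.76 and 9.66 in watered WT (log2 -0.85 ± 0.13 SE, adjusted p = 8.59e-05). The change thus ran in opposite directions. *LFY* in WT fell to 6.67 and 6.65 under drought, against 7.14 and 7.26 under water (log2 -0.54 ± 0.13 SE, adjusted p = 0.00512). In quad *LFY* stood at 7.20 and 7.13 under drought and at 6.97 and 7.01 under water, a difference of 0.17 that did not pass (adjusted p = 0.588). The *AP1* call in quad was lost without any 1 of its 4 arrays (adjusted p = 0.0556 to 0.147). The *LFY* call was lost without replicate 2 of either WT condition (adjusted p = 0.0513 without the drought array and 0.0832 without the water array).

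The flower organ markers went the same way at day 2: 6 of 17 were higher and 0 lower under drought in quad, while 4 were lower and 0 higher in WT. There 7.49% of all genes passed in quad and 13.6% in WT. Of 10 root markers, 9 rose under drought in WT and 0 fell, at a median log2 change of 1.35, while in quad 0 rose and 3 fell. Their part in the day 2 results was not tested.

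At day 4, *AP1* in quad was again higher under drought, at 10.46 and 10.37, against 9.75 and 9.71 under water (log2 0.68 ± 0.13 SE, adjusted p = 0.00232), with 11 of 17 flower organ markers higher and 0 lower (5.13% of all genes passed). The *AP1* call held without replicate 1 of day 4 drought, but with median centring the difference was -0.031 (adjusted p = 0.956). In WT it stood at 10.24 and 10.35 under drought and at 9.91 and 10.23 under water (log2 0.23, adjusted p = 0.599). For *AP1* the difference between the genotypes at day 4, 0.46 ± 0.16 (SE), did not pass (adjusted p = 0.19).

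At day 6 the members that passed were all in WT. *FT* fell to 7.27 and 7.63 under drought, against 8.34 and 8.36 under water (1.86-fold lower, adjusted p = 6.03e-05). *FUL* fell to 10.90 and 11.32, against 11.62 and 12.34 (1.83-fold lower, adjusted p = 0.00344), and *SVP* rose to 13.35 and 13.45, against 12.87 and 12.88 (1.44-fold higher, adjusted p = 0.00473). In quad, *FT* stood at 7.90 and 8.33 under drought and 7.83 and 7.92 under water (log2 0.24, adjusted p = 0.228). *FUL* in quad differed by -0.39 and -0.42 between drought and water (log2 -0.41, adjusted p = 0.162), and *SVP* in quad by 0.33 and 0.26 (log2 0.29, adjusted p = 0.105). The *FUL* and *SVP* differences had 1 sign in both genotypes, and for neither did the genotype difference pass (adjusted p = 0.458 for *FUL* and 0.586 for *SVP*). The *FUL* call was lost without replicate 2 of WT day 6 water (log2 -0.51, adjusted p = 0.112).

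Flower organ markers fell under drought at day 6 in both genotypes, 7 of 17 in quad and 11 of 17 in WT with 0 higher in either. There 18.1% of all genes passed in quad and 15.2% in WT. Of the clock genes, 3 rose and 1 fell in quad, and 6 rose and 2 fell in WT. The plot of drought minus water within replicates shows that quad and WT separated most clearly for *AP1* and *LFY* at day 2 and for *FT* at day 6.

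**Figure D3:**
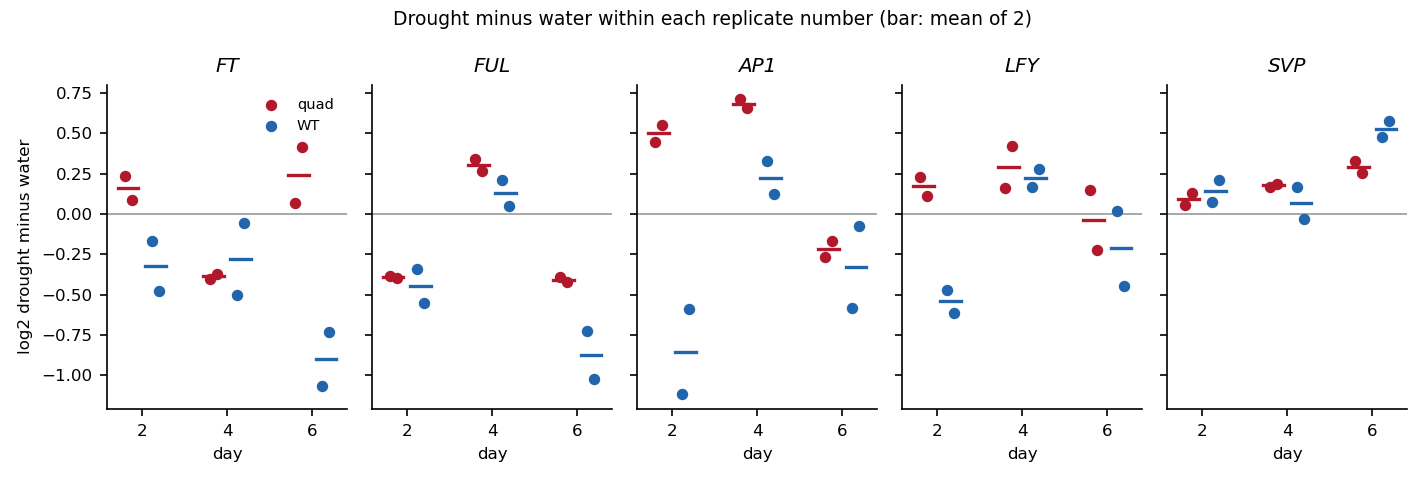
Log2 drought minus water (y axis) of 5 members at days 2, 4 and 6 (x axis) in quad (red) and WT (blue). Each point is 1 replicate number and each bar the mean of 2. At day 6 the *FT* differences were 0.07 and 0.41 in quad and -1.07 and -0.73 in WT; the day 4 replicate 1 arrays alone lay on different slides.

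The largest shares of member pairs passed against day 0, as did the largest shares of all gene pairs. In the drought arm, day and length of drought go together and cannot be told apart. Days 2 to 6 were set against day 0 in each arm, and all these contrasts share the day 0 arrays. Of 54 member and condition pairs, 21 passed in quad (38.9%, against 21.4% of all gene and condition pairs) and 37 in WT (68.5%, against 23.6%). In quad 12 were higher and 9 lower than at day 0, and in WT 25 were higher and 12 lower. At day 2 under drought, 2 of 9 members passed in quad (16.7% of all genes) and 3 in WT (24.4%), and under water 1 in quad (16.9%) and 5 in WT (23.5%). At day 4 under drought, 3 passed in quad (17.9%) and 7 in WT (17.6%), and under water 3 in quad (19.5%) and 7 in WT (21.2%). At day 6 under drought, 5 of 9 members passed in quad (30.9% of all genes) and 7 in WT (30.4%). At day 6 under water, 7 passed in quad (26.7%) and 8 in WT (24.7%). The linear change of the quad/WT ratio per day was tested as well: 2 of 9 members passed under water (9.29% of all genes) and 1 under drought (7.13%), 3 of 18 in all (8.21% of all gene and arm pairs). With loess within arrays alone, 3 pairs over day 0 passed in quad and 8 in WT. Same-numbered arrays of day 0 and day 6 lay on different slides. With slide as a fixed term, chosen after seeing the data, the day 6 calls of *FUL* in watered quad (adjusted p = 0.0913) and *LFY* in watered WT (0.218) were lost. So were those of *FLC* (0.0862 to 0.134) and of *AGL24* in watered WT (0.234) and drought-treated quad (0.057). The other day 6 calls held.

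*AP1* rose in both genotypes and both arms. At day 6 under drought it was 2.33-fold above day 0 in quad (log2 1.22 ± 0.13 SE, adjusted p = 5.26e-07) and 3.27-fold in WT (log2 1.71 ± 0.13, adjusted p = 2.68e-09). Under water it was 2.71-fold above day 0 in quad (log2 1.44 ± 0.13, adjusted p = 5.07e-08) and 4.10-fold in WT (log2 2.04 ± 0.13, adjusted p = 2.08e-10). *AP1* was already 2.55-fold up at day 2 in watered WT (adjusted p = 1.05e-07), when watered quad had a log2 change of 0.07 (adjusted p = 0.769). The slope of the quad/WT ratio per day was -0.11 ± 0.03 (SE) under drought (adjusted p = 0.017) and -0.09 ± 0.03 under water (adjusted p = 0.0576). The drought slope was lost without either day 0 array (adjusted p = 0.112 and 0.0718) or without replicate 2 of day 6 drought (0.112).

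*FT* rose about as far in both genotypes under drought, to 1.67-fold above day 0 in quad (adjusted p = 0.000199) and 1.64-fold in WT (adjusted p = 0.000281) at day 6. Under water it reached 1.41-fold in quad (log2 0.50 ± 0.13 SE, adjusted p = 0.00729; 0.0673 without replicate 2 of day 0 and 0.0681 without replicate 2 of day 6 water) and 3.05-fold in WT (log2 1.61 ± 0.13 SE, adjusted p = 6.62e-09). In WT *FT* was above day 0 at each later day under water, with log2 changes of 0.64 at day 2, 0.94 at day 4 and 1.61 at day 6. The ratio slope under water was -0.17 ± 0.02 log2 per day (adjusted p = 0.000184), which held without any single array, and under drought -0.03 ± 0.02 (adjusted p = 0.469).

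*FUL* behaved like *FT* under water: 1.45-fold above day 0 at day 6 in quad (adjusted p = 0.0439, and 0.0551 to 0.183 without any of 9 single arrays) and 3.14-fold in WT (adjusted p = 1.20e-06). Under drought at day 6 the log2 change was 0.13 in quad (adjusted p = 0.658) and 0.78 in WT (adjusted p = 0.00399, and 0.0585 without replicate 2 of day 6 drought). Its ratio slope was -0.20 ± 0.04 log2 per day under water (SE, adjusted p = 0.0121), lost without replicate 1 of day 0 (0.0875) or replicate 2 of day 6 water (0.0971). *SOC1* rose less and in all 4 series, at day 6 by log2 0.27 in quad and 0.49 in WT under drought and by 0.30 in quad and 0.57 in WT under water (adjusted p = 0.0483, 0.00103, 0.0325 and 0.000254 in that order). The *SOC1* calls in quad were lost without any of 9 single arrays under drought and 4 under water (adjusted p up to 0.224 and 0.181). Its highest level in either genotype was under day 4 drought, at 13.53 and 13.55 in quad and 13.54 and 13.37 in WT, an order that rests on the scaling: with median centring *SOC1* at day 4 drought over day 0 was -0.44 in quad and -0.25 in WT. *LFY* passed only in WT, at day 4 under drought (log2 0.45, adjusted p = 0.0149) and at day 6 under water (log2 0.39, adjusted p = 0.0276), and both calls were lost without single arrays, the highest adjusted p being 0.571 without replicate 2 of day 6 water.

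*CO* fell in all 12 comparisons with day 0, and deepest at day 4. Under drought that depth rests on the scaling. With loess within arrays alone, the log2 change at day 4 under drought was -0.37 in quad and -0.03 in WT. At day 6 under drought it was then -0.83 in quad and -0.76 in WT. The smaller day 2 falls in WT were lost without single arrays (adjusted p up to 0.0978 under drought and 0.16 under water). In log2 signal, *CO* in quad stood at 8.57 and 8.48 at day 0, at 7.09 and 7.14 under day 4 drought and at 7.26 and 7.20 under day 4 water. In WT it stood at 8.18 and 8.12 at day 0, at 7.11 and 7.06 under day 4 drought and at 7.01 and 7.11 under day 4 water. The falls at day 4 were 2.65-fold under drought and 2.44-fold under water in quad, and 2.09-fold under drought and 2.13-fold under water in WT, with adjusted p from 2.64e-09 to 9.48e-08. At day 6 *CO* lay between its day 4 and day 0 levels, 1.59- to 1.77-fold below day 0 in quad and 1.56- to 1.68-fold below in WT. Drought and water did not separate *CO* on any day in either genotype (adjusted p = 0.333 to 0.969). At day 6 *CO* was thus below and *FT* above day 0 in all 4 series, whereas in drought-treated quad at day 4, with *CO* at its lowest, *FT* had a log2 change of -0.15 (adjusted p = 0.496).

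The repressors and *AGL24* moved little as scaled here. *FLC* was lower than at day 0 in watered quad at day 6 (log2 -0.35 ± 0.11 SE, adjusted p = 0.025) and in WT at day 4 and day 6 in both arms (log2 -0.44 to -0.38, adjusted p = 0.00723 to 0.0218). Each of these *FLC* calls was lost without replicate 1 of day 0 (adjusted p = 0.101 to 0.231). *AGL24* was lower at day 6 in quad under drought (log2 -0.39) and water (log2 -0.42) and in watered WT at day 4 (log2 -0.33) and day 6 (log2 -0.30), with adjusted p between 0.00616 and 0.0494. Each *AGL24* call was lost without at least 1 of its own arrays (adjusted p up to 0.434, in watered WT at day 4). *SVP* passed once, higher in drought-treated WT at day 6 (log2 0.37 ± 0.12 SE, adjusted p = 0.025), and not without replicate 1 of day 0 (adjusted p = 0.308).

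**Figure D4:**
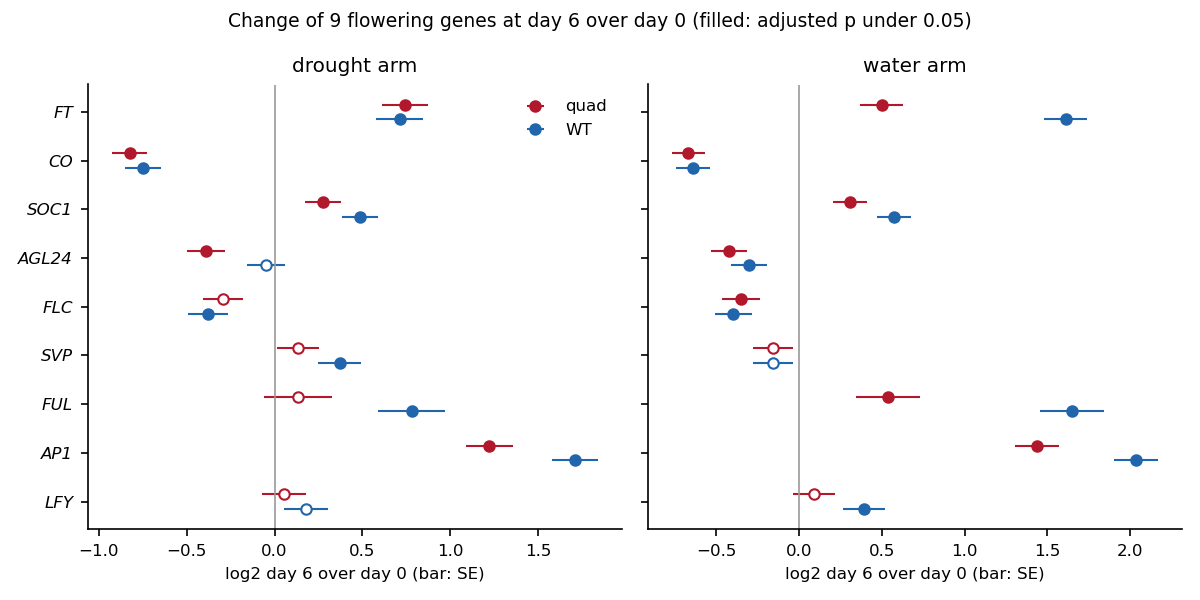
Log2 change at day 6 over day 0 (x axes) of 9 members in quad (red) and WT (blue), drought arm left and water arm right. Points are fitted changes, bars are standard errors and filled points passed an adjusted p under 0.05. Under water *FT* and *FUL* changed by 0.50 and 0.54 in quad and by 1.61 and 1.65 in WT.

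**Figure D5:**
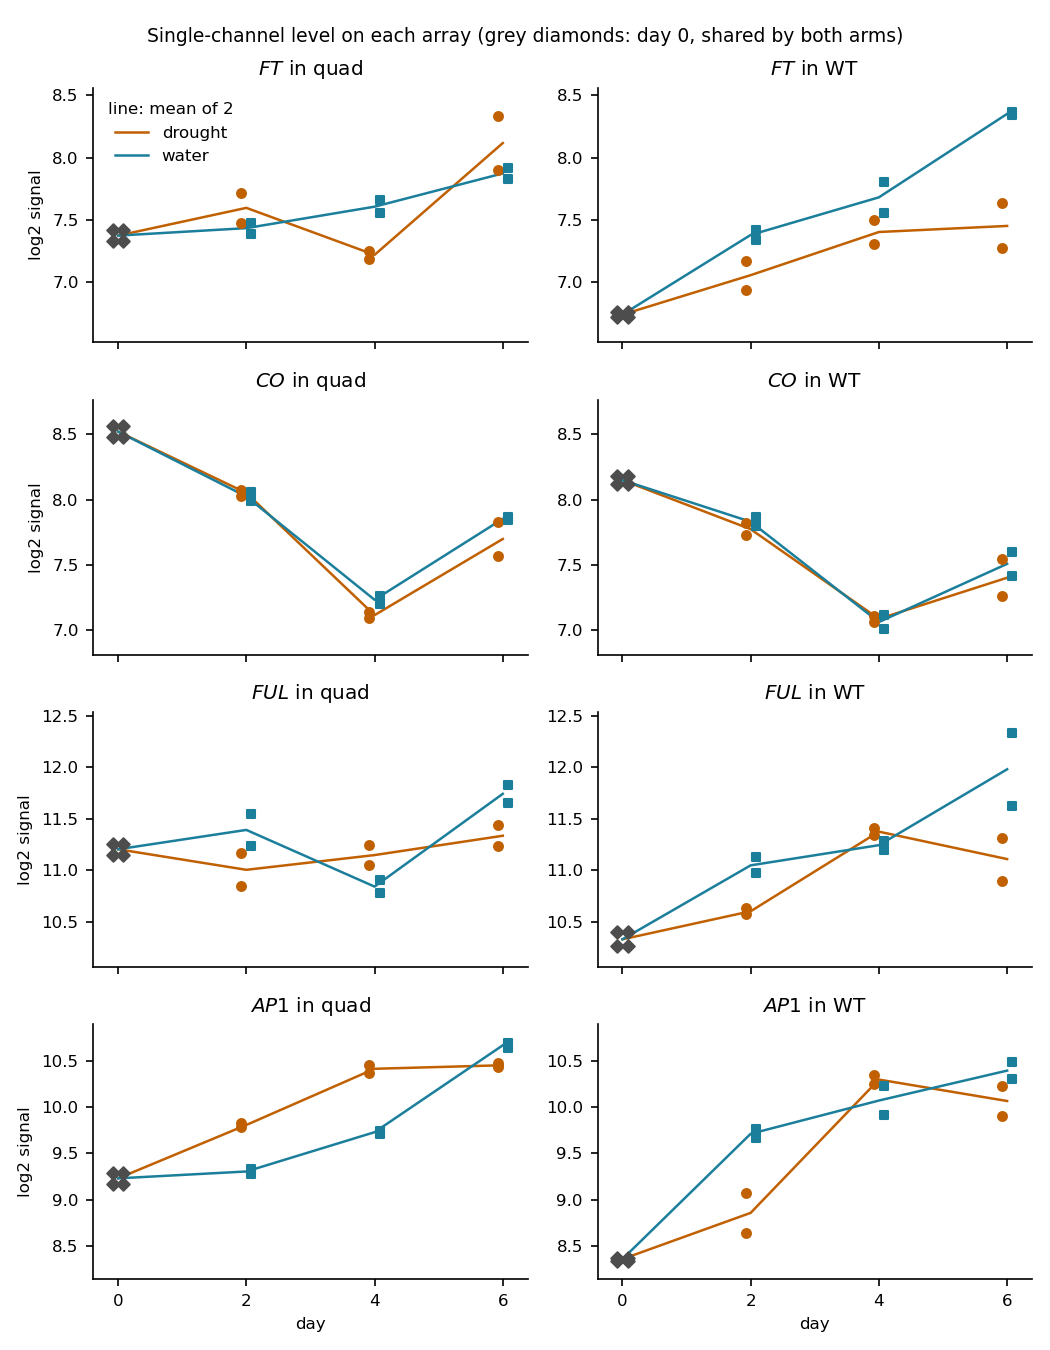
Log2 single-channel signal (y axes) of *FT*, *CO*, *FUL* and *AP1* against day (x axes) in quad (left) and WT (right), drought in orange and water in blue. Points are arrays, lines join means of 2, and grey diamonds are the day 0 arrays that both arms share. *CO* has its lowest level at day 4 in all 4 series as scaled here (not so under drought with loess alone), and *FT* parts between treatments at day 6 in WT.

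The 72 other flowering genes listed beside the members were tested in the same fits. At day 0, 1 of 71 tested was higher and 10 lower in quad (10.1% of all genes passed), and under day 2 drought 5 were higher and 15 lower (17.6% of all genes). The photoperiod and light input group made up much of it: of 20 genes, 6 passed at day 0, 10 under day 2 drought and 9 under day 6 drought, with 1 higher in each, where 10.1%, 17.6% and 12% of all genes passed. Named by size at day 0 were *GI*, the bHLH gene *PIF4* (log2 -1.64) and the DOF repressor of *CO*, *CDF3* (log2 -1.34). Under day 6 drought they were *COL2* (log2 -2.58), a relative of *CO*, *CDF1* (log2 -1.54), another DOF repressor of *CO*, and *COL1* (log2 -1.52). In WT, *COL2* was higher by log2 2.45, *CDF3* by 2.02 and *CDF1* by 1.92 under day 6 drought than under water. In quad the genes named in that contrast were *SNZ*, an AP2-type repressor (log2 1.29), *CDF3* (0.95) and *CDF1* (0.86). *GI* and the CDF genes are themselves clock-regulated, and the clock counts stand above.

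Against day 0, *GI* rose by log2 3.54 under day 6 drought and 2.95 under day 6 water in quad, and in watered WT by 1.27 at day 6. *ATC*, a relative of *FT* that represses flowering, was lower in quad under day 2 drought (log2 -1.85) and higher under day 2 water (log2 1.89), a drought minus water difference of -3.74 ± 0.28 (SE, adjusted p = 2.23e-06). Its sign was thus opposite to that of *AP1*, *LFY* and *FT* in the same comparison. The repressors *TEM1* and *TEM2*, which bind *FT*, were higher in quad under day 4 drought (log2 0.98 and 1.56), when the *FT* ratio was -0.18 ± 0.09 (SE, adjusted p = 0.323).

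Of 19 regulators of *FLC* tested for quad/WT, 3 passed under day 2 drought, 2 under day 6 drought and 1 under day 4 water, all higher in quad, and 0 in the other 4 conditions, counts at or below the shares of all genes (17.6%, 12% and 13.1% in the 3 conditions). Among FLC relatives and AP2-type repressors, 6 of 12 fell and 0 rose at day 6 under water in WT, led by *SMZ* (log2 -1.25), and 3 fell in quad, where 24.7% of all genes passed in WT and 26.7% in quad. Of 12 genes of the SPL age pathway and MADS relatives, 8 rose and 1 fell in quad at day 6 under water, at a median log2 change of 0.81, and 9 rose and 2 fell in WT, at a median of 0.90. The median of all genes lay at -0.02 in quad and -0.04 in WT in these contrasts. *AGL42*, a MADS-box relative of *SOC1*, rose by log2 1.28 in watered WT.

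The genes most like each member over the 28 channels were named by Pearson's r among 18652 genes, as a description, since the 2 channels of an array share a spot and the channels cover the same 7 conditions. *AP1* was most like *SEP2* (r = 0.966) and *AG* (0.965), both floral organ identity genes. *FUL* was most like *SEP3* (0.842) and *SWEET10* (0.815). *CO* was most like *JMJD5* (0.931) and *RVE2* (0.913), both clock-associated genes. *FT* was most like *FAF2* (0.853), *SVP* like *ATH1* (0.836), *AGL24* like *PIN7* (0.834) and *LFY* like *GRF8* (0.848). *SOC1* and *FLC* had unnamed loci first, AT1G13670 (0.870) and AT3G22142 (0.802).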

How the data were processed

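RNA of quad and WT was compared on 14 two-colour Agilent arrays. The authors deposited scanner files (Feature Extraction 10.5.1.1, per the file headers) with spot and local background intensity in Cy5 and Cy3, and with log10 ratios that were used only as a check. The authors also deposited a table of log2 ratios, used as an alternative; per their methods the arrays were normexp-corrected, quantile-normalized and tested with limma. Here, intensity was corrected with normexp (offset 50), normalized by loess within and quantile between arrays, and averaged per probe. Control spots and outlier spots (1 to 126 an array) were left out, as were 5517 loci whose probes were dim. The brightest probe stood for a locus. Ratios of 22810 loci were fitted with limma 3.58.1 (R 4.3.3), and single channels of 22641 loci with its separate-channel fit (intraspot correlation 0.248). Adjusted p is by Benjamini-Hochberg over all loci, with a limit of 0.05. On simulated data the ratio fit for day 6 water recovered 90% of genes changed by a log2 of 1 and 98% of those changed by 2. Its errors were independent, with the same spread of a gene in every condition. In the data, replicate differences had an SD across genes of 0.315 under day 6 water and 0.211 under day 2 water. Changes below a log2 of 1 were not simulated. Members, markers and the 72 other flowering genes were listed with earlier results of these data known. All members are described; of the other genes, up to 3 with the largest change among those that passed, well above background, were named per comparison, and those shown here are a part of these. For each member the genes most correlated with it were named. Symbols came from RefSeq by locus.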

Additional observations from a re-analysis of the deposited data

Results flagged for a closer look

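For 7 results the difference between quad and WT itself differed between treatments or with day, each by a test of that difference at an adjusted p under 0.05 (limma). The drought minus water difference of the log2 quad/WT ratio was 1.36 for *AP1*, 0.71 for *LFY* and 0.48 for *FT* at day 2, and 1.14 for *FT* at day 6. The log2 quad/WT ratio changed per day by -0.17 for *FT* and -0.20 for *FUL* under water, and by -0.11 for *AP1* under drought. Groups of 2 arrays are too small to look for a sample far from the others.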

How the results depend on the processing

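Of 306 member results, 111 passed, and 9 of these passed under every alternative as well. Counts of member and condition pairs that passed depended most on the normalization. Quantile normalization acted on the average signal of a spot and left the ratios as they were, so only single-channel counts can depend on it. With median centring in place of both loess and quantile normalization, 1 quad/WT pair passed (14 before), 0 drought minus water differences (4) and 0 ratio slopes (3). In the single channels 0 drought over water pairs passed in quad (2) and 0 in WT (5), and 3 pairs of later days over day 0 in quad (21) and 9 in WT (37). Median centring moved the median of all genes to between -0.65 and 0.10 in the single channels. With loess alone that median lay between -0.10 and 0.45, and 0 drought over water pairs in quad and 0 in WT passed, with 3 pairs over day 0 in quad and 8 in WT. Among results that had passed, signs changed only with these settings: *AP1* for drought over water in quad at day 4 was -0.031 with median centring, *SOC1* at day 4 drought over day 0 was -0.25 in WT and -0.44 in quad with median centring, and *FLC* at day 4 drought over day 0 in WT was 0.84 with loess alone. The cause was not tested. Requiring also a log2 change over 1.5 left 6 pairs over day 0 in WT and 0 in every other family. Ratio slopes passed in 5 cases with scanner-processed signals and in 5 with slide as a random block. With the replicate number as a block, 22 quad/WT pairs passed (16 higher, 6 lower) and 5 slopes; the added quad/WT pairs were *AP1* under day 4 and day 6 water, *FUL* under day 2 drought, day 2 water and day 4 water, *FLC* and *SOC1* at day 0 and *SVP* under day 6 drought, and no other count moved by over 1.5 times; same-numbered arrays deviated together at r over 0.1 in 19 of 21 condition pairs (0.004 to 0.634), and dye orientation goes with the number. As 2 pairs did not, and the labels tie the numbers to dye orientation but name no shared batch, the block was kept as an alternative. The main fit thus leaves any dye effect that conditions share in its spread. With each array left out in turn, counts ranged from 9 to 14 for quad/WT, 3 to 5 for drought minus water, 1 to 4 for drought over water in quad and 4 to 7 in WT, 12 to 21 over day 0 in quad and 24 to 39 in WT, and 1 to 5 for slopes. Slide as a random block was not run on single channels; slide as a fixed term there was chosen after seeing the data. Dim *TSF* limits what can be said of it.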
